A study of Mus musculus with 6 samples.

Results

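The genes examined here make cholesterol, control its synthesis, carry it between cells and remove it. They were taken from a list of 32 mouse genes by gene symbol: a gene was measured where the array annotation gave it a row of its own, and where it had several, the brightest row on average was used. Of the 32 genes, 27 were measured, among 17858 genes in all. Acat2, Hmgcs1, Nr1h2 and Soat1 have no row named for them and Tm7sf2 shares its row with Vps51, so these 5 were not analysed here. Total RNA of C57BL/6 mouse cerebellum was measured on Affymetrix exon arrays, whose probes are spread over the exons of every gene. There were 3 arrays from mice at 6 weeks of age (6wk) and 3 arrays from pups at 7 days after birth (P7). No genotype or treatment other than strain and age is given for either group, and the series description names the purpose as finding the expression changes that accompany changes in 5-hydroxymethylcytosine, an oxidised form of methylated cytosine. Nothing in the labels ties a replicate to an animal of its own, and the p-values therefore reflect only array-to-array spread, which may be technical.

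Cholesterol is built from acetyl-CoA through mevalonate, squalene and lanosterol, and the brain makes nearly all of its own because lipoproteins of the blood do not cross into it. SREBP transcription factors, held in the endoplasmic reticulum by INSIG proteins when sterol is plentiful and escorted out by SCAP when it is scarce, switch on the synthesis genes. Sterol-sensing LXR receptors switch on genes that move cholesterol out of cells, glia pass it to neurons on apolipoprotein E, and neurons hydroxylate the surplus so that it can leave the brain. In the young brain myelin and growing membranes take up much of the cholesterol that is made.

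Values are the deposited log2 expression values, on which a difference of -1 means a 2-fold lower level at 6wk. The array medians were 7.82 to 7.88 at 6wk and 7.92 to 7.97 at P7. The P7 arrays were the more uneven. Correlations between P7 arrays across genes were 0.94 to 0.983, against 0.985 to 0.991 between 6wk arrays. P7 replicate 2 had low values of cerebellar genes, such as Gabra6 of granule neurons (4.91, against 10.56 and 9.36 in P7 replicates 1 and 3), and high values of the dopamine transporter Slc6a3 (10.76, against 6.78 and 9.84). Of the 1349 genes over 2-fold apart between P7 replicates 1 and 2, P7 replicate 3 lay between them in 97.9%. Among the cholesterol genes 24 of 27 differed by no more than 0.5 between P7 replicates 2 and 1, and the exceptions were Lrp1, Cyp46a1 and Ebp. With 3 arrays a group, precision is limited throughout.

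Genes of cholesterol synthesis were lower at 6wk almost from one end of the measured pathway to the other. The 12 other members had 2 falls and 2 rises. The falls were Srebf2 and the exporter gene Abca1, and the rises were the LXR receptor gene Nr1h3 and the exporter gene Abcg1. Of the 27 measured genes 15 fell, 2 rose and 10 did not pass the test (limma, Benjamini-Hochberg adjusted p under 0.05 over all genes). Over all 17858 genes 13.4% were called lower and 8.26% higher. Of the 15 measured synthesis enzymes 13 fell and 0 rose; at an unadjusted p under 0.05, which 22.4% of all genes passed as lower and 13.3% as higher, the count of rises was also 0. The median difference was -0.84 over the synthesis enzymes, -0.18 over the 12 other members and -0.05 over all genes. In 13 synthesis enzymes every 6wk array was below every P7 array, a pattern that 25.7% of all genes showed. Without P7 replicate 2 the synthesis enzymes again had 13 falls and 0 rises (median -0.81), against 17.2% of all genes called lower and 9.56% called higher in that fit. Lower genes made up 61.9% of all calls as deposited, 45.4% after a further quantile normalization and 44.8% after centring on array medians. In bulk tissue, fewer cells of a type and less RNA per cell cannot be told apart.

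**Figure D1:**
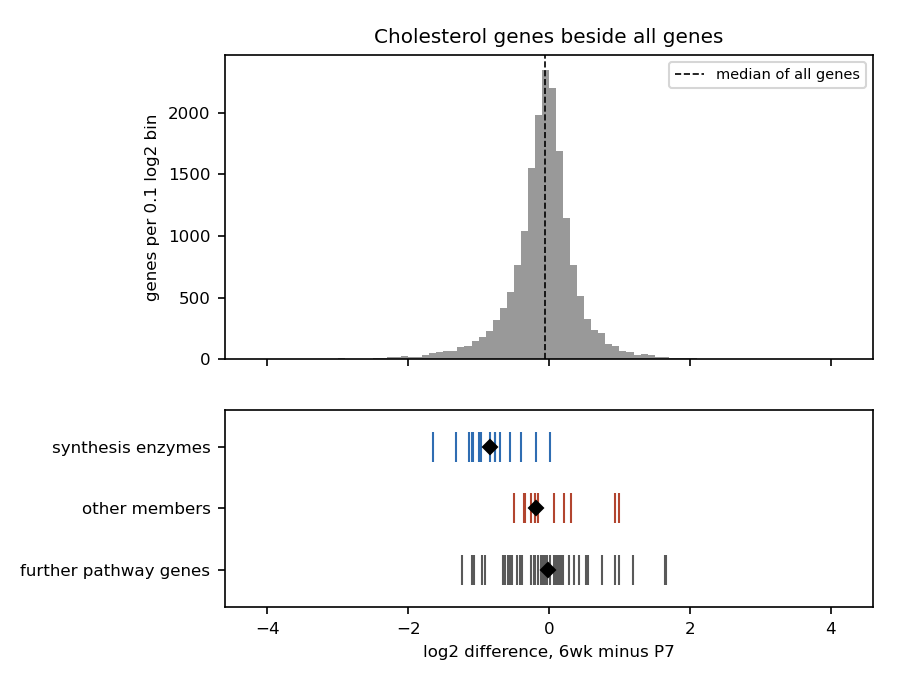
Upper panel, number of genes (vertical axis) by log2 difference, 6wk minus P7 (horizontal axis, bins of 0.1); the dashed line is the median of all genes, -0.05. Lower panel, the same axis with 1 tick per gene and a diamond at the median of each set: the synthesis enzymes centre on -0.84, the other members on -0.18 and the 46 further pathway genes on -0.01.

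The mevalonate segment fell as a whole: all 5 measured enzymes passed, with differences from -1.08 to -0.55 (13.4% of all genes were called lower). Mvk, the kinase that first phosphorylates mevalonate, read 8.09, 8.23 and 8.03 on the 6wk arrays and 8.96, 9.02 and 8.88 on the P7 arrays, so the groups did not overlap. Its difference was -0.84 (SE 0.09, limma adjusted p = 0.00233). Mvd, the decarboxylase that makes the isoprene unit isopentenyl diphosphate, read 8.05, 8.11 and 8.07 at 6wk and 9.24, 8.85 and 9.03 at P7. The 6wk arrays lay close together and the P7 arrays were more spread, and the difference was -0.96 (SE 0.12, adjusted p = 0.00318).

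Idi1, which isomerises that unit, read 9.21, 9.17 and 9.27 at 6wk and 10.36, 9.93 and 10.36 at P7 (difference -1.0, SE 0.14, limma adjusted p = 0.00474). P7 replicate 2 was the lowest of its group and still above each 6wk array. A further Idi1 row gave a difference of -0.86 (SE 0.15, limma adjusted p = 0.0137 over all rows). Fdps, which joins isoprene units into farnesyl diphosphate, the branch point to sterols, ubiquinone and protein prenylation, read 9.99, 10.39 and 10.29 at 6wk and 11.25, 11.38 and 11.27 at P7. Its 6wk mean corresponded to 47.3% of the P7 level (difference -1.08, SE 0.12, adjusted p = 0.00263). Pmvk, the kinase after Mvk, had the smallest fall of the segment: it read 7.69, 7.72 and 7.62 at 6wk and 8.12, 8.39 and 8.16 at P7 (-0.55, SE 0.10, adjusted p = 0.0126). It no longer passed when P7 replicate 3 (limma adjusted p = 0.0511), 6wk replicate 1 (0.0517) or 6wk replicate 3 (0.0642) was removed.

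**Figure D2:**
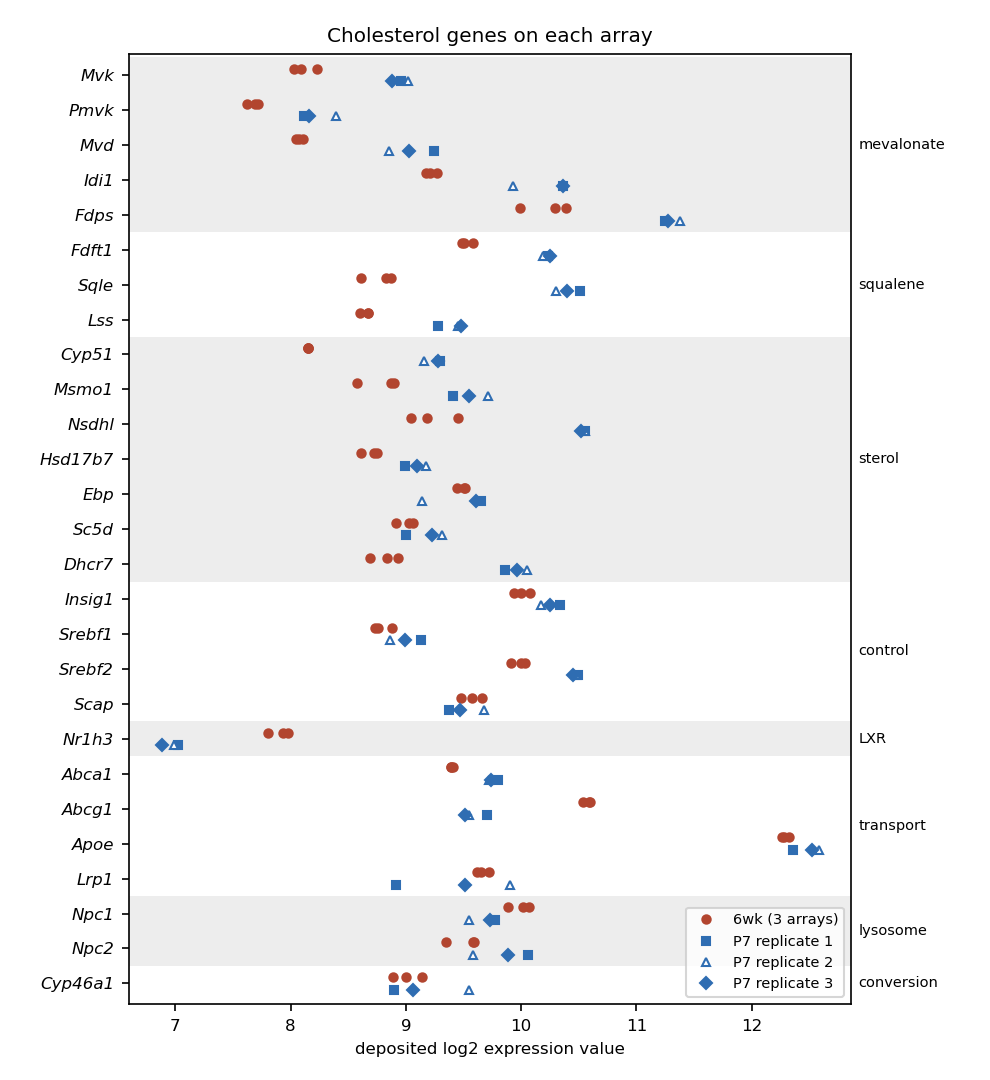
Deposited log2 value (horizontal axis) of each of the 27 genes on each array, genes in pathway order from top to bottom with their role at the right; circles are the 3 6wk arrays and squares, open triangles and diamonds are P7 replicates 1, 2 and 3. Positions of different genes on the axis are not comparable, because each gene has its own probes; in 13 of the 15 synthesis enzymes all circles lie to the left of all P7 symbols.

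All 3 enzymes that take farnesyl diphosphate to lanosterol fell (13.4% of all genes were called lower), and Sqle fell more than any other measured member. Sqle encodes squalene epoxidase, a rate-limiting oxygenase of the pathway. It read 8.61, 8.87 and 8.83 at 6wk and 10.51, 10.30 and 10.40 at P7. The gap between the groups was far larger than the spread within either, and the 6wk mean corresponded to 32.1% of the P7 level (difference -1.64, 95% interval -1.90 to -1.38, limma adjusted p = 0.000644). Fdft1, squalene synthase, which commits farnesyl diphosphate to sterols, read 9.49, 9.58 and 9.50 at 6wk and 10.23, 10.19 and 10.25 at P7 (-0.70, SE 0.08, adjusted p = 0.00248). A second and far dimmer Fdft1 row did not pass (difference 0.19, SE 0.23, limma adjusted p = 0.628 over all rows), and the mean of both rows did not either (-0.26, adjusted p = 0.241). Lss, the cyclase that folds squalene epoxide into lanosterol, read 8.60, 8.67 and 8.67 at 6wk and 9.28, 9.45 and 9.48 at P7. It fell by 0.76 (SE 0.09, limma adjusted p = 0.00282).

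After lanosterol 5 of 7 measured enzymes fell (13.4% of all genes were called lower), and the steps were less alike than before it. Cyp51, the lanosterol demethylase, read 8.15 on each 6wk array and 9.30, 9.16 and 9.28 on the P7 arrays (difference -1.09, SE 0.08, limma adjusted p = 0.000776). Msmo1, Nsdhl and Hsd17b7 act in turn in removing the next methyl groups. Nsdhl, the dehydrogenase of that complex, had the second-lowest difference among the measured members: it read 9.04, 9.45 and 9.18 at 6wk and 10.55, 10.55 and 10.52 at P7 (-1.32, SE 0.12, adjusted p = 0.00141). Its P7 arrays were nearly equal and the spread lay in the 6wk arrays. Msmo1, the oxygenase, read 8.58, 8.90 and 8.87 at 6wk and 9.41, 9.71 and 9.55 at P7 (-0.77, SE 0.13, adjusted p = 0.0085). Hsd17b7, the ketoreductase, moved least of the called synthesis enzymes, with 8.61, 8.72 and 8.75 at 6wk and 8.99, 9.17 and 9.10 at P7. Its difference of -0.40 (SE 0.09, limma adjusted p = 0.0249) did not hold as a call without P7 replicate 3 (0.107), 6wk replicate 1 (0.0935), 6wk replicate 2 (0.0795) or 6wk replicate 3 (0.0785), and under either scaling alternative.

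Dhcr7, the reductase that ends one branch of the pathway and whose loss causes Smith-Lemli-Opitz syndrome, read 8.69, 8.93 and 8.84 at 6wk and 9.86, 10.05 and 9.96 at P7. At 6wk it was at 45.5% of the P7 level (difference -1.13, SE 0.10, limma adjusted p = 0.00135). Between Hsd17b7 and Dhcr7 stand the only measured synthesis enzymes that did not pass. Ebp, the sterol isomerase, read 9.44, 9.51 and 9.50 at 6wk and 9.65, 9.14 and 9.61 at P7, so the groups overlapped through P7 replicate 2 alone. Its difference was 0.02 (95% interval -0.35 to 0.38, limma adjusted p = 0.958) with all arrays and -0.15 (adjusted p = 0.238) without P7 replicate 2. Sc5d, the desaturase that follows it, read 8.91, 9.06 and 9.03 at 6wk and 9.0, 9.31 and 9.23 at P7 (-0.18, 95% interval -0.44 to 0.08, adjusted p = 0.282). The Sc5d interval includes 0 at its upper end. At its lower end it reaches past the called fall of Hsd17b7 (-0.40) and stops short of that of Dhcr7.

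The 6wk arrays also differed among themselves in these enzymes. The median deviation of the 15 synthesis enzymes from their P7 means was -0.98 in 6wk replicate 1, -0.73 in 6wk replicate 2 and -0.92 in 6wk replicate 3, and 0.00, 0.05 and 0.00 in P7 replicates 1, 2 and 3. Over all genes the same medians were -0.06, -0.06 and -0.05 in the 6wk arrays. 6wk replicate 1 held the lowest 6wk value in 11 of the 15 enzymes, and 6wk replicate 2 held the highest in 11. The same order was not counted over all genes, so it cannot be called particular to these enzymes. With 1 array removed at a time, 11 of the 13 falls passed in all 6 fits. How many of all genes called lower did so was not computed. The count of all genes called lower ran from 965 to 3073 across these fits.

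**Figure D3:**
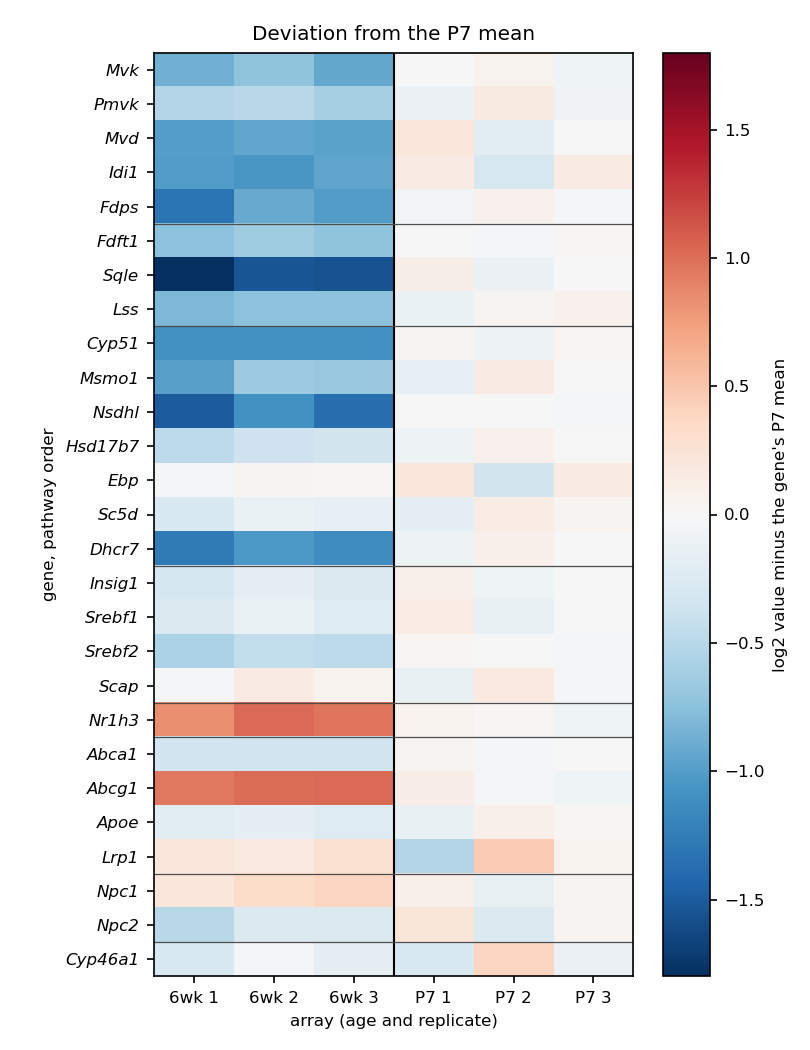
Log2 value minus the gene's P7 mean (colour) for the 27 genes (rows, pathway order) on the 6wk arrays and then the P7 arrays (columns); lines part the roles. The 6wk columns are blue from Mvk to Hsd17b7 and at Dhcr7, pale at Ebp and Sc5d, and red at Nr1h3 and Abcg1.

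Because most synthesis genes moved together, promoter sequences were searched, 250 bases before to 50 bases after each start listed by RefSeq (build GRCm38.p6). Of the 27 measured genes 22 are in that table, with 31 starts. On both strands 3 motifs were searched: TCACNCCAC, the core of the sterol regulatory element that SREBPs bind, CCAAT, bound by their partner NF-Y, and GGGCGG, the GC box of Sp1. The comparison here is with all 27025 genes that have a listed start (32851 starts), not with the genes of the array. A gene counted where any of its starts held the motif. CCAAT stood in a promoter of 12 of the 12 synthesis enzymes in the table and of 5 of 10 other members, against 41.1% of those 27025 genes. GGGCGG stood in 11 of the 12 and in 8 of the 10, against 38.2% of the 27025 genes. The 12 include Ebp and Sc5d, which did not pass and whose promoters hold both motifs. Neither motif thus parts the enzymes that fell from those that did not pass. The sterol element core was in 0 of the 22 genes' promoters and in 1.44% of the 27025 genes, and only these exact letters in these windows were searched. A match in this search is a description of the letters and no evidence of binding. Promoters of enzymes that fell are shown beside those of Insig1 and Cyp46a1, which did not pass, with CCAAT and GGGCGG or their complements in capitals and each sequence on its gene's strand. Of the 3 enzymes with the lowest differences, Nsdhl and Dhcr7 are shown and Sqle is not. Nsdhl lies at chrX:72918271-72918570, plus strand, with 4 CCAAT boxes and 1 GC box. Dhcr7 lies at chr7:143822917-143823216, plus strand, the first of 3 listed starts, with 1 GC box. The CCAAT boxes of Dhcr7 are before a later start, 85 and 49 bases upstream of it. Insig1 lies at chr5:28071162-28071461, plus strand, with 1 CCAAT box and 3 GC boxes, and Cyp46a1 at chr12:108334066-108334365, plus strand, with 1 CCAAT box and 6 GC boxes.
Nsdhl: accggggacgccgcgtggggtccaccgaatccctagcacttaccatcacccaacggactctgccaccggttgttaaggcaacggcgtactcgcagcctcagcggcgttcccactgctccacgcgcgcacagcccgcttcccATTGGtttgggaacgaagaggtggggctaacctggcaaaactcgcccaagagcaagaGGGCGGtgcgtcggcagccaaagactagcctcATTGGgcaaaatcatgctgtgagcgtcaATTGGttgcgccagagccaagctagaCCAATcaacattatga
Dhcr7: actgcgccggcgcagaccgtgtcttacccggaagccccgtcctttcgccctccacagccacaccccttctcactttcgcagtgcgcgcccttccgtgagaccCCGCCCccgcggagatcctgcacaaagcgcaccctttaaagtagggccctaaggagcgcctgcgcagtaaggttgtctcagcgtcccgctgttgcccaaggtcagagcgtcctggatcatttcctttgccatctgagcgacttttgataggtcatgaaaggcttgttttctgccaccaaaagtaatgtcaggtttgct
Insig1: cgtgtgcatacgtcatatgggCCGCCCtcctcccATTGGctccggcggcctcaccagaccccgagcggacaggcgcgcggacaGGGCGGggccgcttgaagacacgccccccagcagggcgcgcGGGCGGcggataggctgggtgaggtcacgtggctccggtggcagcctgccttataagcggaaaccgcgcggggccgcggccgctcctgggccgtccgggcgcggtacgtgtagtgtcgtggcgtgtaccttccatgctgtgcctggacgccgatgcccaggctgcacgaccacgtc
Cyp46a1: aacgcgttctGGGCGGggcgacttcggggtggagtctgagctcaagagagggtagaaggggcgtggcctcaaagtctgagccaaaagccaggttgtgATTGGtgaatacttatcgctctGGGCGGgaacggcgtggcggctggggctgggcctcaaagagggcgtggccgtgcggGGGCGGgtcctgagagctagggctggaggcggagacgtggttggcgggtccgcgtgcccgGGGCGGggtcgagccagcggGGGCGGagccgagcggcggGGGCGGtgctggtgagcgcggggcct

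Among the 4 genes that control synthesis, 1 fell and 0 rose (13.4% and 8.26% of all genes). At an unadjusted p under 0.05 the counts were 2 and 0 (22.4% and 13.3% of all genes). Srebf2, the SREBP gene most tied to cholesterol synthesis, read 9.91, 10.03 and 10.0 at 6wk and 10.49, 10.48 and 10.45 at P7. The groups did not overlap, and the difference of -0.49 (SE 0.08, limma adjusted p = 0.00817) was smaller in size than that of 12 of the 13 enzymes that fell. Insig1, the sterol-dependent anchor of the SCAP-SREBP complex and itself an SREBP target, read 9.94, 10.08 and 10.0 at 6wk and 10.34, 10.17 and 10.25 at P7. All its 6wk arrays were below all its P7 arrays, but the difference of -0.25 (95% interval -0.46 to -0.04) did not pass (adjusted p = 0.0951). Srebf1, whose products mainly drive fatty acid synthesis, differed by -0.20 (95% interval -0.45 to 0.04, adjusted p = 0.206), with 8.73, 8.88 and 8.76 at 6wk and 9.13, 8.86 and 8.99 at P7. Scap, the escort protein gene, read 9.48, 9.66 and 9.57 at 6wk and 9.37, 9.68 and 9.47 at P7, with overlapping groups and a difference of 0.07 (95% interval -0.20 to 0.33, limma adjusted p = 0.715). Interval by interval, Insig1, Srebf1 and Scap each reach less far down than the differences of Sqle, Nsdhl or Dhcr7. The intervals of Insig1 and Srebf1 do reach past the smallest called fall among the enzymes, that of Hsd17b7 (-0.40), and that of Scap does not.

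**Figure D4:**
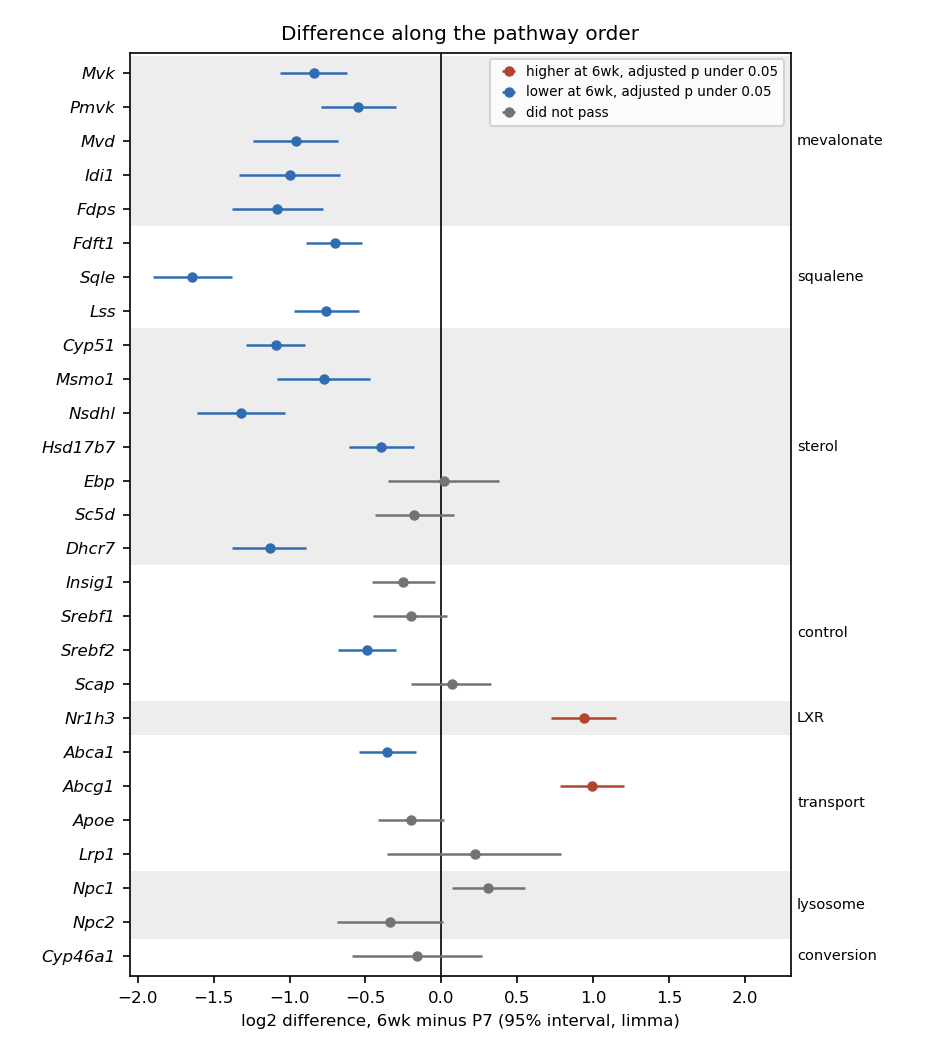
Log2 difference, 6wk minus P7 (horizontal axis), of the 27 genes in pathway order, with 95% limma intervals; red genes were called higher, blue lower, and grey did not pass. The synthesis enzymes run from -1.64 (Sqle) to 0.02 (Ebp), and Nr1h3 and Abcg1 stand at 0.94 and 0.99.

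Genes on the side of sterol sensing and export moved in both directions. Nr1h3, which encodes the receptor LXR alpha, read 7.80, 7.98 and 7.93 at 6wk and 7.02, 6.99 and 6.88 at P7. It rose by 0.94 (SE 0.09, limma adjusted p = 0.00158), or 1.92-fold, and was the single member with a group mean under the first quartile of an array (up to 7.03), where the size of a difference is less certain. Abcg1, a transporter that LXR induces and that loads cholesterol onto lipoprotein particles, read 10.54, 10.59 and 10.60 at 6wk and 9.70, 9.55 and 9.51 at P7. It rose by 0.99 (SE 0.09, adjusted p = 0.00127), or 1.99-fold. Every 6wk array was above every P7 array in both genes, as in 16.4% of all genes.

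Abca1, the other classical LXR-induced exporter, did not move with Abcg1. It read 9.41, 9.39 and 9.39 at 6wk and 9.80, 9.72 and 9.74 at P7, a fall of 0.36 on the log2 scale (SE 0.08, limma adjusted p = 0.0207). It no longer passed without P7 replicate 3 (adjusted p = 0.0935), 6wk replicate 1 (0.0706), 6wk replicate 2 (0.0778) or 6wk replicate 3 (0.0931), and after centring on array medians (0.0614), and the difference kept its sign. Apoe, the main lipoprotein carrier of the brain, read 12.28, 12.32 and 12.26 at 6wk and 12.36, 12.58 and 12.52 at P7. The groups did not overlap but lay close together. Its difference of -0.20 (95% interval -0.42 to 0.02) did not pass (limma adjusted p = 0.173). Lrp1, a receptor for apolipoprotein E particles, read 9.65, 9.62 and 9.72 at 6wk but 8.91, 9.90 and 9.51 at P7, the widest P7 spread of the members (SD 0.50). Its difference was 0.22 with all arrays (adjusted p = 0.569), -0.05 without P7 replicate 1 (0.824), 0.45 without P7 replicate 2 (0.121) and 0.75 with P7 replicate 1 alone at P7 (0.0124), so the arrays chosen decide its value.

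The lysosomal and clearance genes did not pass with all arrays. Npc1 and Npc2 encode the proteins that hand cholesterol out of the lysosome, and their loss causes Niemann-Pick disease type C. Npc1 read 9.89, 10.02 and 10.07 at 6wk and 9.77, 9.55 and 9.73 at P7 (0.31, 95% interval 0.07 to 0.55, limma adjusted p = 0.073). It passed after quantile normalization (0.39, adjusted p = 0.0273) and after centring on array medians (0.41, 0.0257). Npc2 read 9.35, 9.59 and 9.58 at 6wk and 10.06, 9.58 and 9.89 at P7 (-0.34, 95% interval -0.69 to 0.01, limma adjusted p = 0.153), and passed without P7 replicate 2 (-0.47, adjusted p = 0.0308). The differences of Npc1 and Npc2 had opposite signs, and neither passed with all arrays. Cyp46a1, the neuronal hydroxylase that turns cholesterol into an oxysterol able to leave the brain, read 8.89, 9.14 and 9.0 at 6wk and 8.90, 9.55 and 9.06 at P7. The groups overlapped, P7 replicate 2 stood above the rest, and the difference was -0.16 (95% interval -0.59 to 0.27, limma adjusted p = 0.571) with all arrays and 0.03 without that array (adjusted p = 0.89).

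A further 55 genes of sterol and lipid handling were listed beside the members, of which 46 were measured. Of these, 10 fell, 9 rose and 27 did not pass, with a median difference of -0.01. Over all genes 13.4% were called lower and 8.26% higher. Among 9 measured genes of synthesis, uptake and its control, Acat1 and Tmem97 fell and Insig2 rose. Tmem97 (-0.55, limma adjusted p = 0.0114) was named after its values were seen and passed in 4 of the 6 fits with 1 array removed (adjusted p up to 0.0589). Acat1, the mitochondrial acetoacetyl-CoA thiolase, read 9.59, 9.75 and 9.49 at 6wk and 10.53, 10.52 and 10.53 at P7 (-0.91, SE 0.09, limma adjusted p = 0.00195). Insig2, the second INSIG gene, was named after its values were seen: it read 9.50, 9.53 and 9.55 at 6wk and 9.19, 9.0 and 9.10 at P7 (0.43, adjusted p = 0.0163), which passed in 2 of the 6 fits with 1 array removed (adjusted p up to 0.0786).

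Fatty acid genes that SREBPs also drive fell in 4 of 10 measured cases and rose in 1 (13.4% and 8.26% of all genes). Fads2, which makes polyunsaturated fatty acids, read 11.17, 11.25 and 11.20 at 6wk and 12.07, 12.19 and 12.20 at P7 (-0.95, SE 0.08, limma adjusted p = 0.00118). Named after their values were seen, the other falls were Fasn (-0.63), Acaca (-0.58) and Elovl6 (-0.52), and the rise was Scd1 (0.55), the stearoyl-CoA desaturase. With 1 array removed, Fasn alone among these passed in all 6 fits, with adjusted p up to 0.0621, 0.0562 and 0.07 for Acaca, Elovl6 and Scd1.

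Carriers and receptors of lipoproteins rose in 5 of 12 cases and fell in 3 (8.26% and 13.4% of all genes). Sorl1, a sorting receptor of the LDL receptor family, read 11.03, 10.90 and 11.0 at 6wk and 9.42, 9.19 and 9.35 at P7, a 3.15-fold rise (1.66, SE 0.10, limma adjusted p = 0.000606). Apod, a lipid carrier of glia, rose by 1.19 (SE 0.14, adjusted p = 0.00297). Lcat, which esterifies cholesterol on lipoproteins, rose by 1.00 (SE 0.23, adjusted p = 0.0249), which did not pass with P7 replicate 3 or a 6wk array removed (0.0769 to 0.0906). Abca2 (0.93) and Abca7 (0.75), both lipid transporters named after their values were seen, were the remaining rises, and Abca7 passed in 2 of the 6 fits with 1 array removed (adjusted p up to 0.0707). Scarb1, a receptor for high-density lipoprotein, read 7.65, 8.0 and 7.86 at 6wk and 8.98, 9.27 and 8.96 at P7, a fall of 1.23 on the log2 scale (SE 0.13, limma adjusted p = 0.00228). Lpl, lipoprotein lipase, fell by 1.06 (SE 0.13, adjusted p = 0.00328), with 6wk values of 6.11 to 6.49 that lie under the first quartile of the arrays. The third fall was Lrp8 (-0.64), a receptor for reelin and apolipoprotein E, named after its values were seen and called in 2 of the 6 fits with 1 array removed (adjusted p up to 0.095).

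Of 10 measured genes of sterol storage and oxysterol formation, 2 rose and 1 fell (8.26% and 13.4% of all genes). Cyp27a1, the mitochondrial sterol hydroxylase, read 8.72, 9.05 and 8.97 at 6wk and 7.52, 6.98 and 7.3 at P7, a 3.13-fold rise (1.65, SE 0.16, limma adjusted p = 0.00168). Its groups were far apart, whereas those of Cyp46a1 overlapped. Named after their values were seen, Hsd3b7, an enzyme of bile acid synthesis, rose by 0.35 (called in 2 of the 6 fits with 1 array removed, adjusted p up to 0.129) and Cyp7b1, an oxysterol hydroxylase, fell by 0.66. Without P7 replicate 2 this list had 3 rises and 2 falls (9.56% and 17.2% of all genes in that fit). The added fall was Cyp39a1, an oxysterol hydroxylase named after its values were seen, which read 6.32, 6.65 and 6.48 at 6wk and 8.43, 6.46 and 7.85 at P7, so that the groups overlapped through P7 replicate 2 alone. Its difference was -1.10 (limma adjusted p = 0.152) with all arrays and -1.66 (0.00267) without that array. The 5 measured genes of the isoprenoid branches to dolichol, ubiquinone and prenylated proteins had 0 calls with limma, and 1 rise and 0 falls at an unadjusted p under 0.05 (13.3% and 22.4% of all genes); their differences ran from -0.26 to 0.19. Without P7 replicate 2 the 46 genes had 11 falls and 11 rises (17.2% and 9.56% of all genes in that fit). The added rises were Nceh1 and Clu.

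Cell-type markers moved between the ages too, on the same arrays as the cholesterol genes. For comparison, 13.4% of all genes were called lower and 8.26% higher with all arrays. Without P7 replicate 2 these shares were 17.2% and 9.56%. All 4 measured markers of dividing cells fell, with a mean level of 4.88 to 4.98 on the 6wk arrays and 6.93 to 9.47 on the P7 arrays. All 4 immature neuron markers (7.57 to 7.85 at 6wk, 9.85 to 10.73 at P7) and all 4 oligodendrocyte precursor markers (7.96 to 8.15 at 6wk, 9.20 to 9.91 at P7) fell as well. Of 6 granule progenitor markers 3 fell and 0 rose with all arrays (7.58 to 7.68 at 6wk, 8.09 to 9.42 at P7), and 5 fell and 0 rose without P7 replicate 2. Of 4 endothelial markers 3 fell and 0 rose (7.80 to 7.96 at 6wk, 8.26 to 8.36 at P7). Of 4 mature granule neuron markers 3 rose and 0 fell with all arrays (10.83 to 11.08 at 6wk, 6.36 to 9.14 at P7), and 4 rose and 0 fell without P7 replicate 2. Of 4 Purkinje cell markers 2 rose and 0 fell (10.07 to 10.36 at 6wk, 8.02 to 9.57 at P7), and of 6 myelin markers 2 rose and 0 fell (9.73 to 10.22 at 6wk, 8.92 to 9.52 at P7). Astrocyte and Bergmann glia markers split, with 3 rises and 3 falls among 8 (10.11 to 10.15 at 6wk, 9.46 to 10.04 at P7). Of these 31 marker calls 19 passed in all 6 fits with 1 array removed and 12 did not. Among the 12 was the proliferation marker Mki67 (limma adjusted p = 0.015 with all arrays and up to 0.0637 with 1 removed). The like share among all called genes was not computed. The part of these cell types in the results on cholesterol genes was not tested.

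The median marker difference of P7 replicate 2 from P7 replicate 1 was -2.64 for dividing cells and -2.30 for mature granule neurons. It was -1.86 for choroid plexus and 3.72 for midbrain and raphe. Between the same arrays the synthesis enzymes differed in both directions, from -0.51 (Ebp) to 0.30 (Sc5d), with a median of 0.07. P7 replicate 3 was high in midbrain and raphe genes as well: the serotonin transporter gene Slc6a4 read 6.07, 9.82 and 9.33 in P7 replicates 1, 2 and 3, so leaving out P7 replicate 2 keeps an array with such values. Microglia, choroid plexus, midbrain and blood lists had 0 calls with limma; at an unadjusted p under 0.05 the microglia list held 2 falls and the choroid plexus list 1 rise (22.4% and 13.3% of all genes).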

How the data were processed

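The authors' deposited values are on the log2 scale. Per the submitters' processing notes, RMA (background correction, normalization and probe summary), Affymetrix Power Tools and genome mm9 were used, without versions; filters and step order are not stated there. Array minima were 1.91 to 2.09 and maxima 14.2 to 14.4, and the values were used without further scaling. Ages and replicate numbers come from the titles, 3 arrays per age. Of 23750 rows the array annotation gives 18463 a single gene symbol, 1799 several and 3488 none; comparison with RefSeq (GRCm38.p6) changed 0 symbols, and 0 sample columns were left unused. For 471 genes with several rows the row with the highest mean was kept, leaving 17858 genes.

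Each gene was fitted with limma 3.58.1 (lmFit, eBayes, R 4.3.3) for 6wk minus P7, two-sided, without a block, and called at a Benjamini-Hochberg adjusted p under 0.05 over all genes. Intervals are 95% limma intervals, unadjusted, and SE is that of the fitted difference. Levels relative to P7 and folds come from the difference of mean log2 values. The members and lists were chosen with earlier results of these data known, so no list was tested. All members are named, with the 4 largest rises and falls among called genes of the further list. Of 15 alternatives, 1 was changed after seeing the data: the default array weights did not converge, so gene-by-gene weights were used. The steps were tested on simulated data with 200 changed genes.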

Additional observations from a re-analysis of the deposited data

How the results depend on the processing

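Counts of called cholesterol genes stayed within 1.5 times of 15 lower and 2 higher in each alternative: with 1 array removed they ran from 12 to 16 lower and stood at 2 higher. The counts over all genes were less stable, with 965 to 3073 lower and 682 to 1788 higher genes when 1 array was removed, and 5512 lower and 3332 higher with array weights, which gave P7 replicate 3 by far the largest weight (6.66); main counts were 2395 and 1475. The median over all members (-0.40) was -0.30 after quantile normalization, -0.30 after centring on array medians and -0.46 to -0.36 with 1 array removed. The median over synthesis enzymes (-0.84) was -0.75 and -0.74 under these scalings. Removing dim rows, fitting every row, eBayes with trend and robust settings and the replicate block leave a fitted difference unchanged by design. These fits could move a call but not a sign, and they are part of the following counts. Of 405 refitted member differences 368 kept their direction and side of the threshold. Another 19 lost and 11 gained a call, and 7 changed sign, all of uncalled genes. Those were Ebp (-0.11 with array weights, -0.17 with P7 replicate 1 alone at P7, -0.15 to 0.11 with 1 array removed), Scap (-0.0027 to 0.15 with 1 array removed), Lrp1 (-0.05 to 0.45) and Cyp46a1 (-0.30 to 0.03, and 0.11 with P7 replicate 1 alone at P7). Beside the losses and gains in the report, Msmo1 (-0.63, limma adjusted p = 0.0578) and Hsd17b7 (-0.30, 0.111) were lost and Npc2 (-0.56, 0.0498) was gained with P7 replicate 1 alone at P7, where that array is assumed to vary like the 6wk arrays, and Sc5d, Insig1, Srebf1, Apoe, Npc1 and Npc2 were gained with array weights. The cause was not tested. The titles number the replicates of both ages alike, but same-numbered arrays did not deviate together throughout (r = 0.274, 0.141 and -0.0555 across genes); with the replicate number as a block 13 members were lower, 2 higher, and Hsd17b7 (limma adjusted p = 0.0501) and Abca1 (0.0618) were lost.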
